A study of Mus musculus with 4 samples.

Results

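The Wnt ligands, receptors and antagonists described here were the 53 genes, of 17721 in the deposited table, whose symbols start with Wnt, Fzd, Sfrp, Dkk, Nkd, Axin or Rspo followed by a digit, together with Frzb, Lrp5, Lrp6, Notum, Wif1, Tcf7, Tcf7l2, Sp5, Rnf43, Znrf3 and Ctnnb1. The libraries, 2 of wild type and 2 of LDB2-/- origin, were made from RNA of back skin taken from C57BL/6 mice on postnatal day 63. The series design names the material as epidermal lysate, and per the labels' protocols the skin was treated with dispase, which loosens epidermis from dermis. Both genotypes share strain, age and tissue, and the sources used here do not give the LDB2 allele, the sex, or whether the 2 libraries of a genotype came from separate animals, so p-values measure only the spread between these libraries.

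Wnt proteins are secreted lipid-modified ligands that bind Frizzled receptors and the co-receptors Lrp5 and Lrp6. In the canonical branch this stabilises beta-catenin, which enters the nucleus and activates genes together with TCF/LEF factors, and several of those genes encode feedback inhibitors of the pathway. In skin, Wnt signalling is known for its roles in the start of hair follicle growth, in hair shaft formation and in the upkeep of epidermal stem cells, while ligands such as Wnt5a and Wnt11 are best known for signalling that does not need beta-catenin.

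The upstream sequences of a few members are shown first, to set Nkd1, Nkd2 and Wnt11, which rose, beside the feedback gene Axin2, which did not pass the test, and Sp5, which was too low to test. They are the 250 bases before an annotated start site in RefSeq, build GRCm38.p6, on the strand of the gene. Capitals mark matches to CTTTGA or CTTTGT, the hexamers at the core of the TCF/LEF binding motif, on either strand, where TCAAAG and ACAAAG are the reverse complements. The promoter table held 42 windows for 35 of the 53 members. Nkd1 and Nkd2 encode cytoplasmic inhibitors that bind Dishevelled, Axin2 a scaffold of the complex that degrades beta-catenin, Wnt11 a ligand, and Sp5 a transcription factor that is a textbook target of the pathway. Their windows were chr8:88527383-88527632 (plus strand) for Nkd1, chr13:73847632-73847881 (minus strand) for Nkd2, chr11:108920099-108920348 (plus strand) for Axin2, chr7:98834862-98835111 (plus strand) for the first of the Wnt11 start sites, and chr2:70474673-70474922 (plus strand) for Sp5.
Nkd1: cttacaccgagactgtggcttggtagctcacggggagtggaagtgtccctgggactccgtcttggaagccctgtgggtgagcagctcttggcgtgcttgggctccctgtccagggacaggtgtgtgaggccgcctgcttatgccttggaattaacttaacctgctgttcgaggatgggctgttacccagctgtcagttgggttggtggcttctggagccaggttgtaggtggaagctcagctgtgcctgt
Nkd2: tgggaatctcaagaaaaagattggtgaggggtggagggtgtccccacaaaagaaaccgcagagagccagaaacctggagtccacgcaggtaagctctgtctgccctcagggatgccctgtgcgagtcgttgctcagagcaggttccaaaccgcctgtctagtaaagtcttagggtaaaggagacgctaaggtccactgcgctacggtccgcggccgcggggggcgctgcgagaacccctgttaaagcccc
Axin2: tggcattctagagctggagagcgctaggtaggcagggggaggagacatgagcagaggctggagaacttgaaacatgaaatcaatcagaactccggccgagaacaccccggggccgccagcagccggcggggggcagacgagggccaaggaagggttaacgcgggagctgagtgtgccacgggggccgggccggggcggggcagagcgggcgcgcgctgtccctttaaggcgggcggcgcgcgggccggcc
Wnt11: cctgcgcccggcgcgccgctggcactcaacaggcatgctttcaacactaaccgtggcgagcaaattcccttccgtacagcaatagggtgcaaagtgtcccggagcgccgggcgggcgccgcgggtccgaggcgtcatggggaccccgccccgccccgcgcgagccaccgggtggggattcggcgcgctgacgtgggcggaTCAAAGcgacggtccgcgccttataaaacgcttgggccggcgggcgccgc
Sp5: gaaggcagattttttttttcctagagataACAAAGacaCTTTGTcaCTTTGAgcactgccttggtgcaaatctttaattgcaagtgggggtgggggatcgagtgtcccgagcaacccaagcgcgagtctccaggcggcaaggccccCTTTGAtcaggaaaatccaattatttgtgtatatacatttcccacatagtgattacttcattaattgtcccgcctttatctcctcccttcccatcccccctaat
The Nkd1 and Axin2 windows lie inside the annotated span of their gene, before a later of its start sites. The Sp5 window held 4 matches, the Wnt11 window 1, whose first base lay 50 bases before the start site (the window of the other Wnt11 start site held none), and the windows of Nkd1, Nkd2 and Axin2 none. Of the 42 member windows 8 held either hexamer (19.0%), against 9075 of 32851 windows of the same length over all genes (27.6%). CTTTGA alone was in 11.9% of member windows and 13.8% of all windows, and CTTTGT in 11.9% and 16.5%. The 2 hexamers differ in their last base, so matches to one cannot be matches to the other at the same position and strand. A match is a description of these letters and not a measured binding site.

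The whole table sets the scale for the counts below. Total counts ran from 54095522 to 68436842 per library. A gene was tested where its FPKM, the deposited length-scaled level of a gene, was 1 or more in at least 2 libraries, which left 12400 genes. Levels below are TMM-scaled CPM, counts per 1e+06 counts after scaling libraries with edgeR's trimmed mean of M-values, unless FPKM is named. Changes are log2 fold changes of LDB2-/- over wild type from edgeR's quasi-likelihood test with Benjamini-Hochberg adjusted p. At an adjusted p under 0.05, 57.2% of tested genes were called, 28.4% higher and 28.8% lower in LDB2-/-. Scaling by the library total alone shifted the median over all tested genes from -0.01 to -0.33 (log2), and called 2248 genes higher and 5096 lower in place of 3521 and 3576. The targeted gene could not check the labels, since Ldb2 had 0 and 8 counts in wild type against 0 and 0 in LDB2-/-.

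Markers of several cell types also differed between the genotypes, and their part in the results below was not tested. All 9 hair matrix markers, which include Lef1, rose (summed FPKM 65.7 to 66.4 in wild type and 791.7 to 810.5 in LDB2-/-), as did all 10 hair shaft markers (17.9 to 176.4 and 10370 to 11080). All 10 basal keratinocyte markers fell (12670 to 14050 and 4856 to 5038), and 8 of 9 suprabasal and granular markers fell (17870 to 20940 and 2435 to 2706). Of 10 fibroblast markers 6 were tested and all 6 rose (13.9 to 20.8 and 56.3 to 64.3), with none at 0 in both libraries of a genotype. Of 12 dermal papilla markers 4 were tested and all 4 rose (7.32 to 8.23 and 19.3 to 21.8), 3 of these 4 having reached the FPKM minimum in LDB2-/- libraries only. Most of that sum was Prdm1 (4.68 and 5.47 FPKM in wild type, 13.6 and 11.4 in LDB2-/-), which is also listed as a pathway target below, the highest value of any other dermal papilla marker was 2.45 FPKM (Trps1), and Sox2 was at 0 in both LDB2-/- libraries. Of the other lists, 9 of 10 inner root sheath and 8 of 8 melanocyte markers rose and 5 of 6 immune markers fell. Outer root sheath and companion layer markers went both ways (3 of 6 higher, 1 lower), as did bulge markers (2 of 8 higher, 3 lower), which include Tcf7l1. The 5 tested endothelial markers and 6 tested skeletal muscle markers were all higher, but 5 of each list were tested only through LDB2-/-, so their direction was largely fixed by the filter. Also tested only through LDB2-/- were 2 hair matrix, 2 melanocyte, 1 hair shaft, 1 inner root sheath and 1 fibroblast marker. Only through wild type were 2 suprabasal and granular markers and 1 bulge marker tested. The counts for those lists are thus partly fixed by the filter. Summed FPKM was 1.97 to 3.29 in wild type and 21.0 to 21.6 in LDB2-/- for the endothelial list, 4.84 to 6.78 and 37.4 to 41.3 for the skeletal muscle list, and Kdr was at 0 in both LDB2-/- libraries. In bulk tissue, fewer cells of a type and less RNA per cell cannot be told apart.

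Of the 53 members 36 were tested, and 16 rose and 8 fell in LDB2-/-, while 12 did not pass. That is 24 of 36 called against a background of 57.2%, so the share of members called in either direction is close to that of the table. By direction, 16 of 36 higher stands against 28.4% of all tested genes, and 8 of 36 lower against 28.8%. The median log2 fold change of the tested members was 0.24, against -0.01 over all tested genes. With the library total alone, 12 members were called higher and 10 lower. Without wild type replicate 2 only 4 members were called lower, as Wnt3a, Fzd8 and Tcf7l2 did not pass and Wnt16 was no longer tested. Nkd1, Sfrp4, Wnt2 and Wnt9a were tested only because they reached the FPKM minimum in LDB2-/-, and Wnt16 only through wild type, so for these genes a difference is partly fixed by that filter. The first 4 were not tested when either LDB2-/- library was left out. Over all 53 members, 24 were higher and 13 lower in both LDB2-/- libraries than in both wild type libraries, against 35.3% and 37.8% of the 17721 deposited genes. In either direction, 73.2% of all genes had no overlap. By the adjusted p in the authors' deposited table, 18 members passed 0.05 as higher and 9 as lower, and all 24 genes called here were among them in the same direction.

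**Figure D1:**
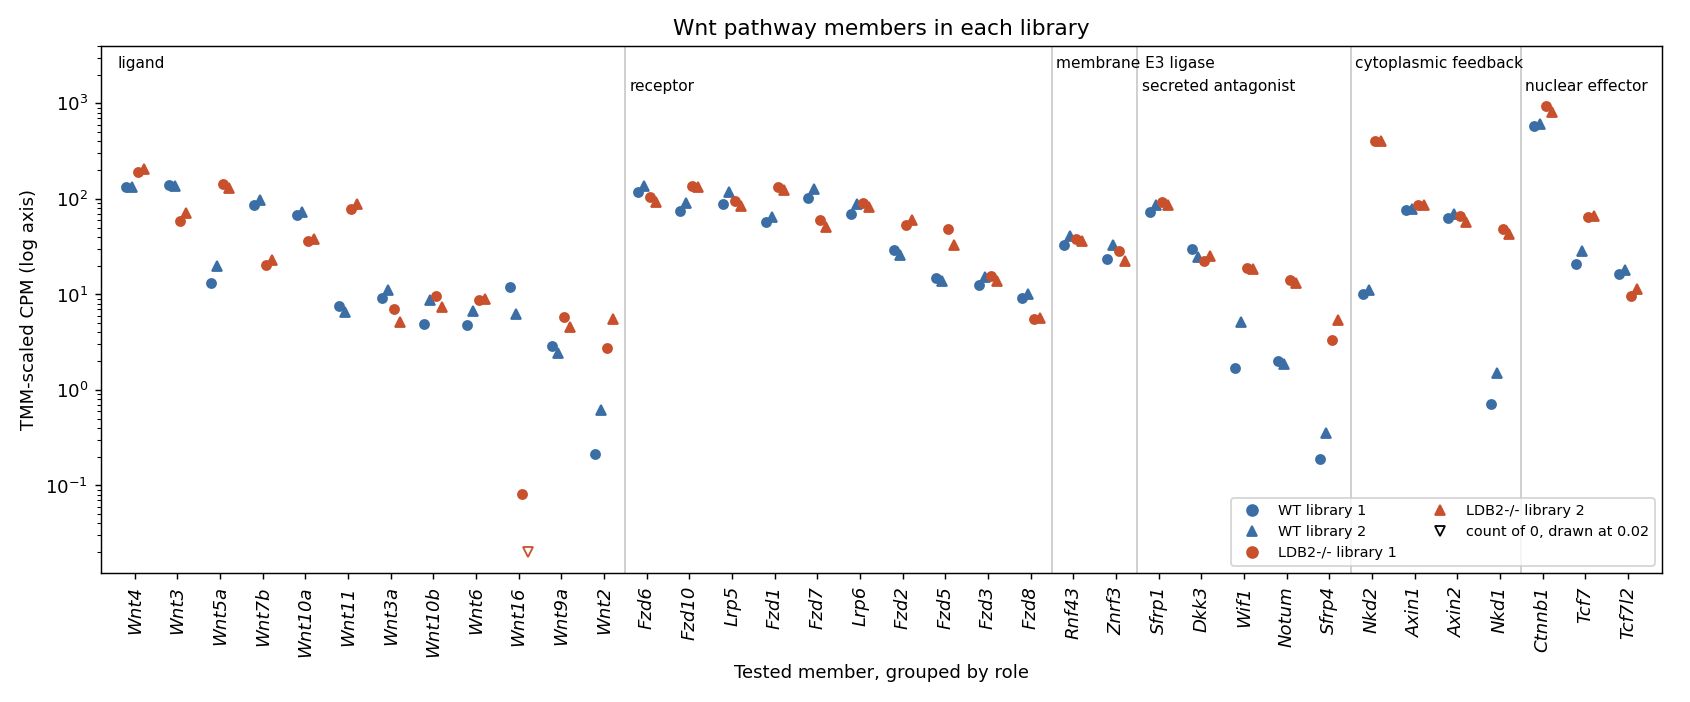
TMM-scaled CPM (log axis) of the 36 tested members in each of the 4 libraries, grouped by role and ordered by mean level within a role. Nkd2 lies near 10 in wild type but at 403 and 405 in LDB2-/-, the axin and E3 ligase points of the genotypes lie close together, and Wnt16 is at 0 counts in LDB2-/- library 2.

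Among the 18 ligand genes the makeup of the expressed set differed between the genotypes. Its summed level in LDB2-/- was 0.840 times wild type in FPKM and 1.05 times after TMM scaling. Of 12 ligands tested 5 rose and 5 fell, with a median log2 fold change of 0.45, where 28.4% of all tested genes were called higher and 28.8% lower. Wnt2 and Wnt9a were tested only through LDB2-/- and Wnt16 only through wild type, so these counts and the median are partly fixed by the filter. Wnt16, Wnt7b, Wnt3, Wnt10a and Wnt3a fell, and Wnt11, Wnt2, Wnt5a, Wnt9a and Wnt4 rose. Compared per length, wild type ligand transcripts were mostly Wnt3 (27.8% and 25.8% of the summed ligand FPKM in libraries 1 and 2), Wnt4 (21.3% and 20.5%), Wnt10a (21.1% and 22.2%) and Wnt7b (15.7% and 17.2%). In LDB2-/- libraries 1 and 2 Wnt4 led (29.6% and 30.3%), followed by Wnt5a (19.4% and 16.9%) and Wnt11 (15.6% and 17.6%). Wnt3 was then at 11.3% and 12.6%, Wnt10a at 11.1% and 10.7%, and Wnt7b at 3.56% and 3.65%. The summed ligand FPKM was 182.0 ± 6.93 in wild type and 152.9 ± 0.47 in LDB2-/- (SD, n = 2), and dividing FPKM by the TMM factors turned the order to 163.0 ± 3.86 and 170.7 ± 7.07. The direction of the ligand sum thus depends on the scaling, whereas the shares within a library do not.

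Wnt11 (gene ID 22411, chromosome 7, 98835084 to 98854747, mm10) had the largest rise of the tested ligands. It was at 7.55 and 6.50 CPM in wild type against 77.6 and 88.2 in LDB2-/-. The genotypes were far apart and the libraries of each close together, and Wnt11 rose by 3.56 (SE 0.15 on that log2 scale, adjusted p = 8.65e-05). Wnt5a (chromosome 14, 28504543 to 28527448), a ligand of dermal cells and hair follicles, was at 13.1 and 20.1 CPM in wild type against 142 and 132 in LDB2-/-. Its log2 rise was 3.05 (SE 0.22, adjusted p = 0.000284), with a gap between the genotypes much wider than that between the wild type libraries. Wnt2, tested only through LDB2-/- and at 0.22 and 0.62 CPM in wild type against 2.72 and 5.597 in LDB2-/-, rose by 3.33 (SE 0.63, adjusted p = 0.00672). Its libraries differed more than 2-fold within each genotype, and its log2 fold change was 2.69 or 4.21 on leaving out wild type replicate 1 or 2.

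Wnt4, a ligand that signals with or without beta-catenin, was at 133 and 133 CPM in wild type against 191 and 208 in LDB2-/-. Its rise of 0.59 (SE 0.10, adjusted p = 0.00534) fell short of the threshold with the library total alone (0.27, adjusted p = 0.0545, the highest over its alternatives, which went down to 1.40e-06). Wnt9a, tested only through LDB2-/- and at 2.91 and 2.43 CPM in wild type against 5.84 and 4.54 in LDB2-/-, rose by 0.96 (SE 0.28, adjusted p = 0.0307). That call was lost in 7 of 15 alternatives, among them the library total alone (adjusted p = 0.106) and leaving out either wild type library (adjusted p = 0.0591 without replicate 1 and 0.139 without replicate 2). Over its alternatives the adjusted p of Wnt9a ran from 0.0138 to 0.144.

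Wnt16 (gene ID 93735, chromosome 6, 22288178 to 22298522), a ligand known from epidermis and bone, was close to the limit of detection in LDB2-/-. It had 891 and 408 counts in wild type against 4 and 0 in LDB2-/-. Every wild type count was far above every LDB2-/- count, although the wild type libraries themselves stood at 12.02 and 6.31 CPM. The fitted log2 fold change was -7.87 (SE 0.83, adjusted p = 0.000874), a size that rests on 4 counts and changed to -2.73 with limma on log2(FPKM + 1) and to -12.23 without LDB2-/- replicate 1. Without either wild type library the gene was not tested, because it then reached the FPKM minimum in 1 library only.

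Wnt7b (chromosome 15, 85535437 to 85581821) was at 86.7 and 97.9 CPM in wild type against 20.3 and 22.9 in LDB2-/-. Wnt7b fell by 2.096 (log2, SE 0.13, adjusted p = 0.000189), with clear space between the genotypes. Wnt3 (chromosome 11, 103774175 to 103818021), the ligand with the highest FPKM in wild type, was at 142 and 136 CPM there and at 59.4 and 70.5 in LDB2-/-, a fall of 1.09 (SE 0.13, adjusted p = 0.00119). Wnt10a (chromosome 1, 74792019 to 74804176), a ligand whose loss is known to disturb skin appendages, stood at 67.5 and 73.4 CPM in wild type against 36.6 and 37.7 in LDB2-/-. It fell by 0.92 (SE 0.11, adjusted p = 0.00129). Wnt3a, at 9.25 and 11.2 CPM in wild type against 7.03 and 5.11 in LDB2-/-, fell by 0.75 (SE 0.25, adjusted p = 0.0462). The Wnt3a call was lost without wild type replicate 2 (adjusted p = 0.136), without LDB2-/- replicate 2 (adjusted p = 0.160) and with the replicate block (adjusted p = 0.0765), in a range down to 0.0114.

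Wnt6 and Wnt10b, both expressed in keratinocytes and hair follicles, did not pass. Wnt6 was at 4.84 and 6.71 CPM in wild type against 8.84 and 8.98 in LDB2-/-, a log2 fold change of 0.63 (95% interval 0.02 to 1.23, adjusted p = 0.0738). Wnt10b was at 4.88 and 8.66 in wild type against 9.59 and 7.34 in LDB2-/-, values that overlap, with a log2 fold change of 0.32 (95% interval -0.50 to 1.15, adjusted p = 0.439) that turned negative without wild type replicate 1. The other 6 ligands were too low to test. Wnt5b had 158 and 125 counts in wild type against 223 and 156 in LDB2-/-, Wnt1, Wnt2b, Wnt7a, Wnt8a and Wnt9b had at most 45 counts in any library, and Wnt2b was at 0 in both wild type libraries and in LDB2-/- library 1.

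Several ligand genes are neighbours, and in the 1 close pair where both passed the test the directions were opposite. Wnt3a, which fell, and Wnt9a, which rose, lie 16097 bases apart on chromosome 11. Neither call was firm, as Wnt3a lost it in 3 of 17 alternatives and Wnt9a, tested only through LDB2-/-, in 7 of 15. Wnt6, which did not pass, and Wnt10a, which fell, lie 6696 bases apart on chromosome 1, and Wnt10b and Wnt1 lie 11650 bases apart on chromosome 15. The RefSeq spans of Wnt9b and Wnt3 overlap, as do those of Wnt10a, Wnt11 and Wnt7b with long noncoding RNAs and that of Tcf7 with Skp1. In all, 22 of the 53 members overlap another annotated gene, and the kit named in the labels does not mark strand, so reads in such overlaps cannot be told apart.

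**Figure D2:**
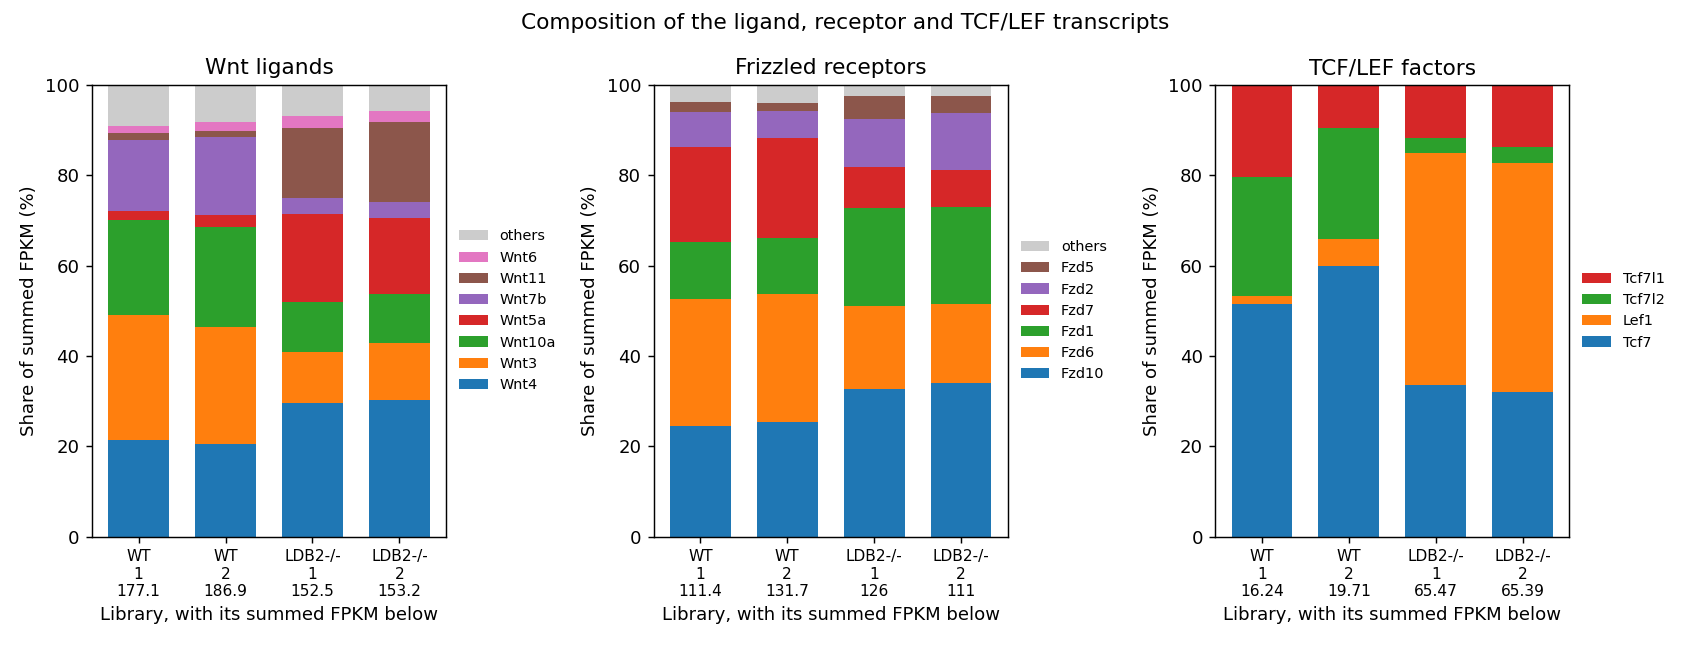
Share of summed FPKM (percent) taken by each gene in each of the 4 libraries, for the 18 Wnt ligands, the 10 Frizzled receptors and the 4 TCF/LEF factors, with each library's summed FPKM under its bar. Wnt5a and Wnt11 widen and Wnt3 and Wnt7b narrow from wild type to LDB2-/-, and Lef1 goes from 1.67% and 5.91% to 51.3% and 50.8% of the TCF/LEF sum.

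The R-spondins, secreted proteins that strengthen Wnt signalling by removing the E3 ligases Rnf43 and Znrf3 from the cell surface, were all below the test's minimum. Rspo3 had 211 and 79 counts in wild type against 42 and 50 in LDB2-/-, and Rspo1 had 6 and 0 in wild type against 21 and 84 in LDB2-/-. Rspo4 was at 0 in both wild type libraries and had 41 and 20 counts in LDB2-/-. Its pooled LDB2-/- level was 25.9-fold a floor of 3 counts over the wild type group. That value leaves out the spread between the LDB2-/- libraries. With no filter on low values Rspo4 had an adjusted p of 0.0276 and Rspo1 of 0.0727 in the edgeR fit. The authors' deposited adjusted p was 0.000965 for Rspo4 and 0.0112 for Rspo1. Rspo2 had 24 counts in LDB2-/- library 2 and 0 in the other 3 libraries. Their summed FPKM was 1.33 and 0.56 in wild type against 0.84 and 1.17 in LDB2-/-, where the genotypes overlap.

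Among the receptors the Frizzled genes split, while the co-receptors did not pass. Of 10 receptor genes tested 4 rose, 2 fell and 4 did not pass, with a median log2 fold change of 0.12. Over all tested genes 57.2% were called, 28.4% higher and 28.8% lower. The share of receptor genes called in either direction was thus near that background, and a split of this kind does not set them apart. Fzd5, a receptor with few transcripts in wild type skin, was at 14.7 and 13.8 CPM in wild type against 48.4 and 32.7 in LDB2-/-. It rose by 1.51 (SE 0.22, adjusted p = 0.00244), the largest rise of a receptor, although the LDB2-/- libraries differed from each other. Fzd1 stood at 57.7 and 64.6 CPM in wild type against 133 and 123 in LDB2-/-, a rise of 1.06 (SE 0.12, adjusted p = 0.000995). Fzd2 was at 28.9 and 26.0 in wild type against 53.9 and 59.7 in LDB2-/-, a rise of 1.05 (SE 0.13, adjusted p = 0.00136). The LDB2-/- mean was 2.09 times that of wild type for Fzd1 and 2.07 times for Fzd2, with no overlap.

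Per length, Fzd10 (39.4 FPKM) led the Frizzled genes in LDB2-/-, where Fzd6 was at 21.4, while in wild type Fzd6 (34.3 FPKM) stood above Fzd10 (30.3). The CPM of Fzd10 was 74.8 and 90.4 in wild type against 136 and 132 in LDB2-/-, a rise of 0.70 (SE 0.13, adjusted p = 0.00622). With the library total alone its log2 fold change was 0.38 and did not pass (adjusted p = 0.0610, in a range down to 3.84e-06). Fzd7, a receptor used by many canonical ligands, fell by 1.05 (SE 0.15, adjusted p = 0.00248), from 103 and 127 CPM to 60.3 and 51.1. Fzd8 fell by 0.79 (SE 0.21, adjusted p = 0.0196), from 9.29 and 10.2 CPM to 5.48 and 5.73, a call lost without wild type replicate 2 (adjusted p = 0.0655) and without LDB2-/- replicate 1 (adjusted p = 0.0516), the alternatives going down to 0.00319.

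Fzd6, known for hair patterning through planar cell polarity, was at 118 and 138 CPM in wild type against 105 and 93.1 in LDB2-/-. Its log2 fold change of -0.36 (95% interval -0.69 to -0.04) missed the threshold (adjusted p = 0.0588), and 8 of 17 alternatives called Fzd6 lower (range of adjusted p 0.00618 to 0.292). Fzd3, with libraries between 12.5 and 15.8 CPM, had a log2 fold change of 0.09 (95% interval -0.40 to 0.57). Lrp5, the co-receptor, ran from 85.4 to 117 CPM over the 4 libraries and Lrp6 from 69.2 to 90.9, and the genotypes overlapped for both. The log2 fold change was -0.19 for Lrp5 (95% interval -0.59 to 0.21) and 0.15 for Lrp6 (95% interval -0.21 to 0.51), and the signs for Lrp6 and Fzd3 turned negative with the library total alone, with limma on FPKM and without wild type replicate 1. Fzd4 and Fzd9 were too low to test, with 64 and 102 against 108 and 97 counts, and 12 and 16 against 1 and 0 counts. Summed Frizzled FPKM was 121.6 ± 14.4 in wild type and 118.5 ± 10.7 in LDB2-/- (SD, n = 2), so the sum differed by less than the spread between libraries, and it was 108.8 ± 11.3 and 132.1 ± 6.84 after dividing by the TMM factors.

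**Figure D3:**
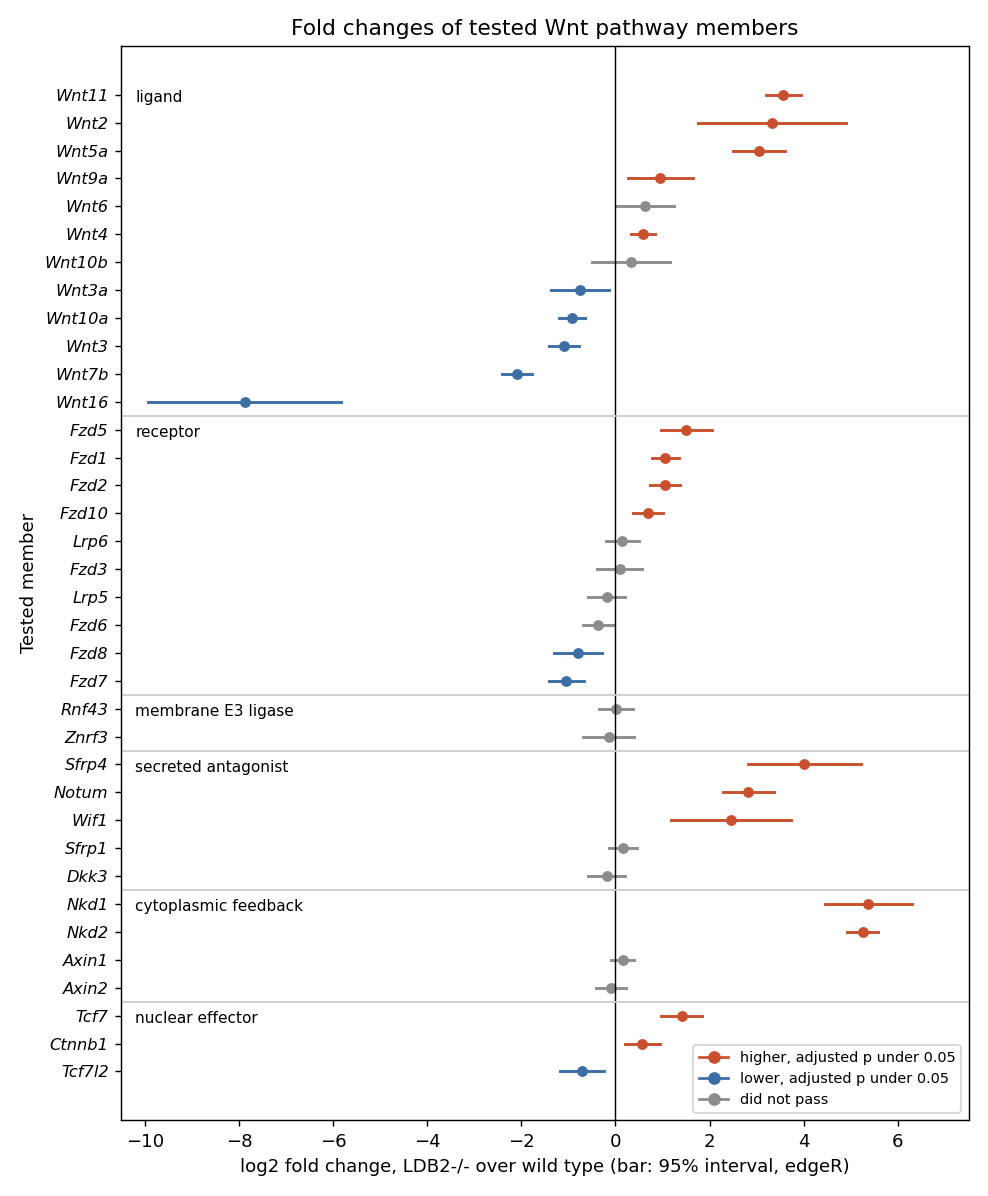
log2 fold change of LDB2-/- over wild type for the 36 tested members, by role, with the unadjusted 95% interval of the edgeR fit as a bar and the adjusted call as colour. Ligands and Frizzled receptors lie on both sides of 0, and the bar of Wnt16 is the widest. Secreted antagonists and the group labelled cytoplasmic feedback lie at or above 0 apart from Dkk3 and Axin2. That group holds the Nkd genes and both axins, although Axin1 is not a feedback target.

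Secreted antagonists bind Wnt proteins or their receptors outside the cell. Of 9 such genes 5 were tested, and Wif1, Notum and Sfrp4 rose while Sfrp1 and Dkk3 did not pass. These few genes stand against a background of 57.2% of tested genes called, 28.4% higher and 28.8% lower. Notum, an enzyme that removes the lipid from Wnt proteins and is itself a pathway target, was at 1.996 and 1.87 CPM in wild type against 14.3 and 13.1 in LDB2-/-. Its rise of 2.82 (SE 0.22, adjusted p = 0.000346) far exceeded the difference between libraries of a genotype. Wif1, which binds Wnt ligands directly, was at 1.69 and 5.20 CPM in wild type against 19.1 and 18.4 in LDB2-/-. It rose by 2.45 (SE 0.52, adjusted p = 0.00967), and its wild type libraries stood far apart. The log2 fold change was 1.79 or 3.42 on leaving out wild type replicate 1 or 2. Sfrp4, a secreted Frizzled-related decoy, had 14 and 23 counts in wild type against 167 and 322 in LDB2-/-, and rose by 4.01 (SE 0.48, adjusted p = 0.00135). It was tested only through LDB2-/-.

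Sfrp1 held the largest part of the antagonist FPKM in every library, with 59.5% and 63.2% of it in wild type against 46.3% and 43.2% in LDB2-/-. It was at 73.7 and 85.6 CPM in wild type against 92.5 and 85.6 in LDB2-/-, with a log2 fold change of 0.16 (95% interval -0.14 to 0.46, adjusted p = 0.298) that turned negative with the library total alone and with limma on FPKM. Dkk3, a divergent member of the Dickkopf family, was at 29.8 and 24.7 CPM in wild type against 22.3 and 25.5 in LDB2-/-, with a log2 fold change of -0.19 (95% interval -0.59 to 0.21). The genotypes overlap for Dkk3, and for Sfrp1 the lower LDB2-/- library and the higher wild type library are level. Dkk2, Frzb, Sfrp2 and Sfrp5 were too low to test, with at most 89 counts in any library. Sfrp2 had 64 and 67 counts in wild type against 12 and 19 in LDB2-/-, the opposite order to Sfrp4. Summed antagonist FPKM was 32.5 ± 2.50 in wild type and 40.0 ± 1.89 in LDB2-/-, or 29.1 ± 1.82 and 44.6 ± 0.40 after dividing by the TMM factors.

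Among the negative regulators of the pathway inside the cell or at its membrane, Nkd1 and Nkd2 had the largest rises. These were also the largest of the 36 tested members in the edgeR fit, while the axins and the E3 ligases did not pass. Nkd2 (gene ID 72293, chromosome 13, 73818534 to 73847631) was at 10.0 and 11.2 CPM in wild type against 403 and 405 in LDB2-/-, a 38.0-fold difference of the means. It rose by 5.25 (SE 0.13, adjusted p = 6.49e-05). Nkd1 (gene ID 93960, chromosome 8, 88521342 to 88594887) was at 0.71 and 1.501 CPM in wild type against 48.2 and 43.0 in LDB2-/-, a 41.2-fold difference. Its log2 fold change was 5.37 (SE 0.37, adjusted p = 0.000248), and it became 4.87 or 5.94 on leaving out wild type replicate 1 or 2. Nkd1 was tested only through LDB2-/-, so its difference is partly fixed by the filter. The naked cuticle genes thus differed by a like factor, while per length Nkd2 (88.4 FPKM in LDB2-/-) was higher than Nkd1 (9.31 FPKM).

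Axin2, the most widely used reporter of canonical Wnt activity, did not follow the Nkd genes. It was at 63.3 and 69.0 CPM in wild type against 66.7 and 57.1 in LDB2-/-, values that overlap, with a log2 fold change of -0.10 (95% interval -0.41 to 0.21, adjusted p = 0.541). The upper bound of that interval lies far below the lower bounds of 4.92 for Nkd2 and 4.46 for Nkd1, which was tested only through LDB2-/-. Over its alternatives Axin2 ran from -0.42 to 0.04, and of these 17 only limma on log2(FPKM + 1) called it lower (-0.39, adjusted p = 0.0487, in a range up to 0.853). Axin1, its paralog that is not a feedback target, was at 76.2 and 79.2 CPM in wild type against 86.6 and 86.0 in LDB2-/- (log2 fold change 0.15, 95% interval -0.10 to 0.40), and its sign turned negative with the library total alone and with limma on FPKM. Both LDB2-/- libraries were above both wild type libraries for Axin1, by less than the test could call. Rnf43 and Znrf3, membrane E3 ligases that remove Frizzled receptors, had libraries between 33.1 and 41.2 CPM and between 22.6 and 33.0 CPM, with both genotypes overlapping. Their log2 fold changes were 0.01 (95% interval -0.35 to 0.38) and -0.15 (95% interval -0.68 to 0.39), and the sign of Rnf43 turned negative with the library total alone, with limma on FPKM, with no filter and without wild type replicate 1. Znrf3 turned positive without wild type replicate 2 and without LDB2-/- replicate 2.

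**Figure D4:**
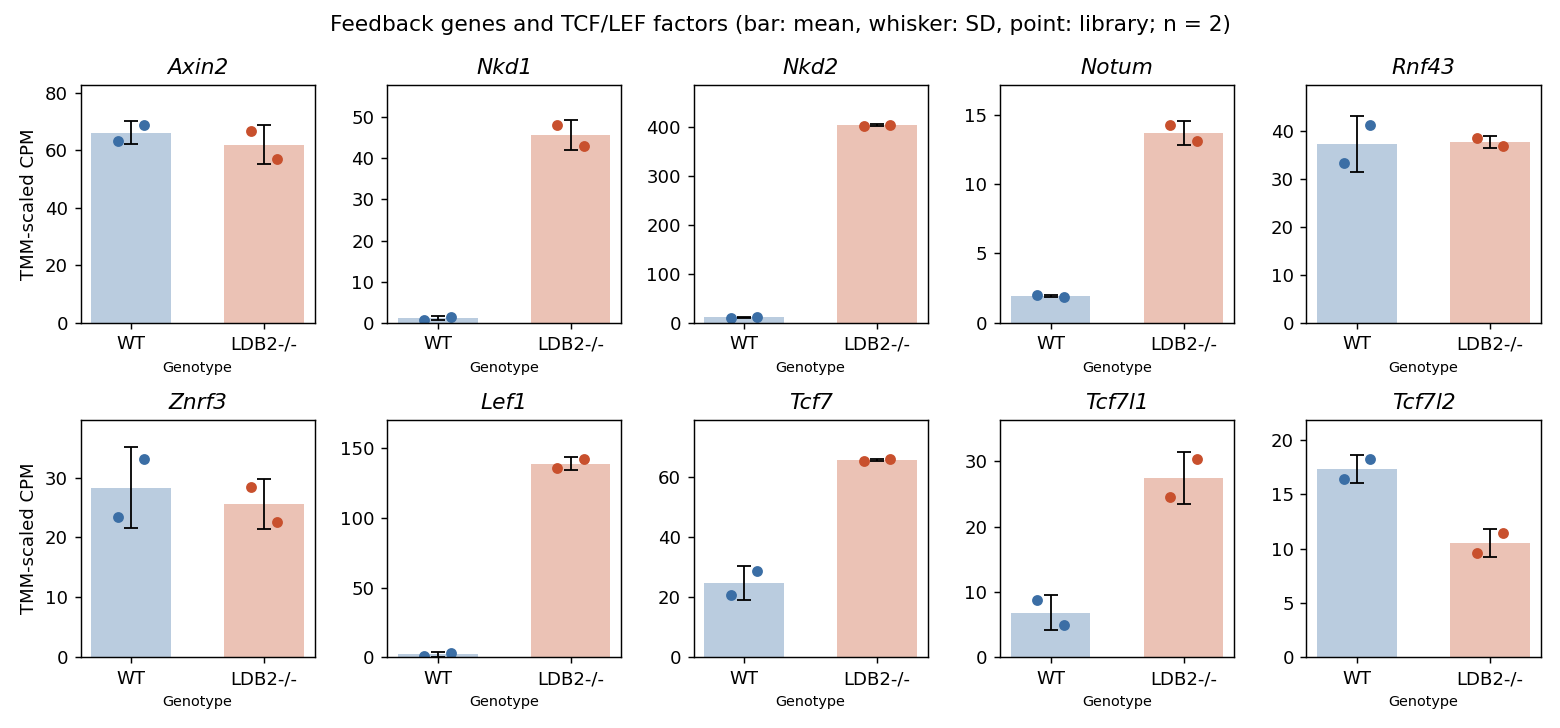
TMM-scaled CPM of feedback genes (Axin2, Nkd1, Nkd2, Notum, Rnf43, Znrf3) and TCF/LEF factors in each genotype, each panel with its own axis from 0, bars for means, whiskers for SD and points for the 2 libraries. Nkd1, Nkd2, Notum, Lef1, Tcf7 and Tcf7l1 stand higher in LDB2-/-, Tcf7l2 stands lower, and the points of Axin2, Rnf43 and Znrf3 overlap.

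In the nucleus, the TCF/LEF factors differed between the genotypes both in their makeup and in their summed level. Ctnnb1, which encodes beta-catenin and had the highest FPKM of all members (178 in wild type and 213 in LDB2-/-), was at 575 and 603 CPM in wild type against 944 and 806 in LDB2-/-. Its rise of 0.57 (SE 0.15, adjusted p = 0.02003) was lost in 6 of 17 alternatives. These included the library total alone (0.26, adjusted p = 0.192), the replicate block (adjusted p = 0.0838) and leaving out wild type replicate 1 (adjusted p = 0.0611) or LDB2-/- replicate 1 (adjusted p = 0.107), in a range down to 6.98e-06. Beta-catenin is controlled mainly through its protein, which RNA counts do not measure.

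Tcf7, which encodes TCF1, was at 20.8 and 28.7 CPM in wild type against 65.4 and 65.8 in LDB2-/-. It rose by 1.41 (SE 0.18, adjusted p = 0.00159), with no overlap and almost equal LDB2-/- libraries. Tcf7l2, which encodes TCF4, went the other way, from 16.4 and 18.2 CPM to 9.63 and 11.4, a fall of 0.72 (SE 0.19, adjusted p = 0.0209). That call was lost without wild type replicate 2 (adjusted p = 0.0723) and without LDB2-/- replicate 1 (adjusted p = 0.0804), the lowest of its alternatives being 0.00279. Lef1, the factor of the hair matrix and precortex, lies outside the 53 genes but completes the family, at 0.92 and 3.40 CPM in wild type against 135 and 142 in LDB2-/-. Its log2 fold change was 6.02 (SE 0.61, adjusted p = 0.000766), and it became 5.29 or 7.19 on leaving out wild type replicate 1 or 2. Tcf7l1, which encodes the bulge repressor TCF3, was at 8.73 and 4.92 CPM in wild type against 24.6 and 30.3 in LDB2-/-, a rise of 2.01 (SE 0.31, adjusted p = 0.00316). Of the summed FPKM of these 4 factors, Tcf7 took 51.6% and 59.9% and Tcf7l2 26.4% and 24.6% in wild type, while in LDB2-/- Lef1 took 51.3% and 50.8%, Tcf7 33.6% and 31.9%, and Tcf7l2 3.26% and 3.53%. The sum itself went from 18.0 ± 2.45 to 65.4 ± 0.06 (SD, n = 2), and from 16.1 ± 1.96 to 73.1 ± 2.74 after dividing by the TMM factors. Sp5, with 4 hexamer matches in its upstream window, had 0 and 5 counts in wild type against 12 and 22 in LDB2-/- and was too low to test.

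The wider pathway was followed in a list of 78 further deposited genes chosen by their textbook roles. Of 64 tested, 21 rose, 13 fell and 30 did not pass, with a median log2 fold change of 0.13 against -0.01 over all tested genes. That is 34 of 64 called, near the background of 57.2%. The counts by list below stand against the same background, 28.4% higher and 28.8% lower. Of the ligand secretion genes Porcn, which attaches the lipid to Wnt proteins, rose by 1.21 (SE 0.18, adjusted p = 0.00273), and Wls, the carrier of Wnt proteins, did not pass (0.15, adjusted p = 0.301, negative with the library total alone and with limma on FPKM). Among other co-receptors 5 of 10 rose and 1 fell. Ror2, a receptor for Wnt5a, was at 0.78 and 1.32 CPM in wild type against 32.4 and 30.2 in LDB2-/-, a rise of 4.90 (SE 0.30, adjusted p = 0.000183), tested only through LDB2-/-. The R-spondin receptor Lgr6 fell by 2.72 and the glypican Gpc3 rose by 1.47.

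Of 7 other extracellular regulators tested 3 fell, namely Dkkl1 (-2.32), Sostdc1 (-1.61), an inhibitor of BMP and Wnt signals, and Tpbg (-0.63). The other 4 did not pass. Of 19 tested cytoplasmic components 4 rose, 3 fell and 12 did not pass. Cxxc5, a Dishevelled-binding inhibitor, rose by 2.23 and the kinase gene Csnk1e by 1.45. Tnks, which encodes the tankyrase that marks axins for breakdown, fell by 1.22 (adjusted p = 0.0453), a call lost in 5 of 17 alternatives, among them leaving out wild type replicate 2 (adjusted p = 0.133) or LDB2-/- replicate 2 (adjusted p = 0.0657), in a range down to 0.00335. Of 12 nuclear genes 3 rose and 5 fell, and besides Lef1 and Tcf7l1 the coactivator gene Pygo1 had a large change, a fall of 2.50 (adjusted p = 0.00665), tested only through wild type.

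Of 6 tested genes listed as pathway targets 4 rose and 1 fell, where 28.4% of all tested genes were called higher and 28.8% lower. Bambi, a decoy receptor of TGF-beta family signals, rose by 6.15, from 3.03 and 3.40 CPM to 221 and 236, and was tested only through LDB2-/-. The ephrin receptor gene Ephb3 rose by 2.26, the repressor gene Prdm1 by 1.61 and Ccnd1 by 1.38. Cd44 fell by 0.81 (adjusted p = 0.0105), and Lgr5 did not pass (0.31, adjusted p = 0.568). Of 9 planar polarity genes tested 4 rose and 5 did not pass, against 57.2% called over the table. Prickle1 rose by 1.79 and Vangl2 by 1.01. Prickle2 was at 29.3 and 36.9 CPM in wild type against 2.30 and 27.2 in LDB2-/-, so 1 LDB2-/- library decides its value. Its log2 fold change was -1.16 (adjusted p = 0.332), -0.23 without LDB2-/- replicate 1 and -3.82 without LDB2-/- replicate 2 (adjusted p = 2.75e-06, where others reached 0.579). With the library total alone, 15 of the 64 genes were called higher and 23 lower.

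Members differed among themselves in how far libraries of a genotype agreed. Over the 36 tested members the median absolute difference in log2(CPM + 0.5) between the wild type libraries was 0.24, against 0.17 over all 12400 tested genes. Between the LDB2-/- libraries it was 0.17 for the members and 0.17 for all genes. Hair shaft markers also differed between the wild type libraries, with a summed FPKM of 17.9 in library 1 and 176.4 in library 2. The part of that difference in the member values was not tested.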

How the data were processed

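Levels in 4 RNA-seq libraries of mouse back skin were analysed, 2 per genotype. Per the submitters' processing notes, bcl2fastq 1.8.4, HISAT2 2.1.0, StringTie 1.3.4d and build mm10 were used; their settings are not given in the sources used here, and the labelled kit (TruSeq RNA Sample Prep) does not mark strand. Per the file headers, the authors deposited raw read counts and FPKM per gene, and log2 values normalized by an unnamed method. The authors' deposited signed fold change is treated as a score, beside their adjusted p-value.

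Members and gene lists were chosen with earlier results of these data known. Genes reaching FPKM 1 in 2 or more libraries were tested with edgeR 4.0.16 (R 4.3.3, TMM, quasi-likelihood, two-sided, Benjamini-Hochberg over 12400 genes). TMM factors ran from 1.105 to 1.128 for wild type libraries and from 0.872 to 0.920 for LDB2-/-. Alternatives used limma 3.58.1, also on the authors' deposited log2 values, and DESeq2 1.42.0. Sensitivity covered scaling, filters, tests, a replicate block and leaving out libraries. Full statistics were given, per role, for up to 6 members with the smallest p and the 2 with the highest FPKM; values of the other tested members follow these. In each pathway list, up to 3 genes with the largest change and Lef1 were named, and among the targets all tested genes. Gene coordinates and upstream sequences are from RefSeq, GRCm38.p6, matched by gene ID (53 of 53 members, 35 with an upstream sequence). Count floors and intervals cover counting or library error only. Figures used matplotlib 3.10.9.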

Additional observations from a re-analysis of the deposited data

How the results depend on the processing

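Of the 24 called members 17 kept their call and direction in every alternative that tested them, and 7 (Ctnnb1, Fzd10, Fzd8, Tcf7l2, Wnt3a, Wnt4 and Wnt9a) lost the call in at least 1. Of the 12 that did not pass, 4 (Axin2, Dkk3, Fzd6 and Lrp5) passed as lower in at least 1. No tested member was called in opposite directions by different alternatives, and 8 members that did not pass changed sign. With DESeq2 size factors, or TMM without keratin, keratin-associated and trichohyalin genes, edgeR called 16 members higher and 8 lower, as above. The median log2 fold change over all tested genes was -0.33 with the library total alone. It was -0.29 and -0.33 with limma on log2(FPKM + 1) and log2(FPKM + 0.1), so these alternatives share a downward shift. With the library total alone 2248 genes of the whole table were called higher, against 3521. The other Wnt pathway genes called lower were then 23, against 13, and 22 and 21 with limma on log2(FPKM + 1) and log2(FPKM + 0.1). Leaving out 1 library in turn gave 11 to 15 members higher and 4 to 9 lower, 14 to 19 other pathway genes higher and 11 to 13 lower, and 2576 to 3095 genes higher and 2705 to 3408 lower over the table. The numbers 1 and 2 in the labels are not stated to pair libraries, and same-numbered libraries deviated from their group means with a correlation of -0.198 over 12400 genes. With the replicate block 14 members were called higher and 7 lower, and 2916 and 3176 genes of the table; 16 and 12 other pathway genes were called. Crossed pairs, chosen after seeing the data, gave 15 members higher and 9 lower. Large changes of low genes were smaller on log2(FPKM + 1), which compresses them, and on the authors' normalized values: Nkd1 was 3.01 and 3.07, Nkd2 4.52 and 3.23, Sfrp4 1.43 and 1.41, Wnt2 1.13 and 1.21, Wnt11 2.82 and 2.19, and Notum 1.76 and 1.51, all still called. With no filter on low values 17 members were higher and 8 lower. The 2 libraries per genotype and the FPKM minimum limit what could be tested, and 17 members were below it.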
